A study of Mus musculus with 6 samples.

Results

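The mRNA levels of 10 interleukin and TNF (tumour necrosis factor) ligands and receptors were examined in prefrontal cortex from an aged mouse model of postoperative neurocognitive disorder (PND). The 10 genes were picked by name, and each name matched 1 Ensembl identifier among the 21006 listed in every sample. Of these, 5 encode ligands (Il1b, Tnf, Il18, Il33 and Il34) and 5 encode receptors or receptor subunits (Il1r1, Il1rap, Il6ra, Il6st and Tnfrsf1a). The rule that picks them uses names and no measured value, although earlier results of these data were known when it was written.

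Interleukins and TNF are secreted or membrane-bound proteins that cells use to signal inflammation and injury. IL-1β, IL-18 and IL-33 belong to the IL-1 family, whose receptors recruit the adaptor MyD88 and activate NF-κB. TNF acts through TNFR1, which carries a death domain, and through TNFR2, which does not, whereas IL-6 signals through JAK kinases and STAT3 once its receptor has joined the shared subunit gp130. In brain, microglia are the usual source of IL-1β and TNF after an immune challenge, IL-33 is stored in the nucleus of astrocytes and oligodendrocytes, and IL-34 is a neuronal ligand that keeps microglia alive.

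All mice were wild type C57BL/6 males, 18 months old by the age label, although the sample titles carry the tag 17M, which is not explained there. The PND group had isoflurane anesthesia and an exploratory laparotomy, in which the abdomen was opened and its organs were inspected, followed by lidocaine cream and povidone iodine on the wound. The control (CON) group had neither the anesthesia nor the operation. The animals of both groups went through behavioural tests, which continued for several days after the operation. The cortex was taken after the last of these, under deep isoflurane anesthesia and after perfusion with saline. Each group had 3 mice with 1 RNA library each, drawn at random from a larger group, so that the comparison covers anesthesia and surgery together. The value of each gene was its FPKM, the number of sequenced fragments per kilobase of exon scaled to the depth of its library.

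The 6 libraries were of similar size, and no cell type marker passed the cut-off used below. The sum of FPKM ranged from 215640 to 240447, and the depth estimated from the values ranged from 7211070 to 9387359 fragments. Neuronal markers summed to 841 to 907 FPKM in PND and 868 to 943 FPKM in CON, and Snap25 and Slc17a7 were present in every library. Microglial markers summed to 55.5 to 65.7 FPKM in PND, and 52.3 to 70.8 FPKM in CON, with 7 of 10 higher in PND. Groups did not overlap for 7 of the 66 markers tested (10.6%), against 7.66% of all genes, and those named here were chosen after their values were seen. One was the purinergic receptor gene P2ry12, with 5.49 ± 1.36 FPKM in PND against 9.27 ± 1.50 FPKM in CON (SD, n = 3). Astrocyte markers summed to 357 to 488 FPKM in PND, against 306 to 606 FPKM in CON, with 5 of 8 higher in PND. Within that list Gfap, the filament protein of reactive astrocytes, measured 21.8 ± 3.65 FPKM in PND against 13.6 ± 1.10 FPKM in CON, and the water channel gene Aqp4 measured 24.0 ± 2.14 FPKM against 30.8 ± 3.85 FPKM. Oligodendrocyte markers summed to 240 to 303 FPKM in PND, against 274 to 299 FPKM in CON, with 2 of 8 higher in PND and a median log2 fold change of -0.16. Endothelial markers summed to 37.5 to 48.2 FPKM in PND, and 35.0 to 35.9 FPKM in CON, without overlap, with 5 of 8 higher in PND. Of these the surface protein gene Ly6c1 measured 5.79 ± 1.43 FPKM against 3.23 ± 0.117 FPKM, and the receptor gene Tek went the other way, at 1.70 ± 0.110 FPKM against 2.24 ± 0.222 FPKM. CON replicate 1 and CON replicate 2 stood at opposite ends for GC-rich genes. The median deviation of the GC-richest decile of genes was -0.56 in CON replicate 1 and 0.49 in CON replicate 2 on the log2 scale, against -0.30 to 0.37 in the other libraries.

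The sequences upstream of the ligand genes are shown because the ligands ranged from nearly silent genes to abundant ones, and their promoters also differed in sequence. RefSeq promoters on GRCm38.p6 were matched for 9 of the 10 genes, 11 promoters in all, and Il34 was not among them. In each line below, the 100 bases before a start site are written 5′ to 3′ on the strand of the gene, and capitals mark the motif TATAAA.
Il1b, chr2:129371140-129371239, minus strand: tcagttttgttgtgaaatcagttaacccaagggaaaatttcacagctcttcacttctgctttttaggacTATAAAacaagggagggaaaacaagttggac
Tnf, chr17:35202008-35202107, minus strand: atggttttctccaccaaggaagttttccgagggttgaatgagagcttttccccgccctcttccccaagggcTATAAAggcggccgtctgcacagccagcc
Il33, inner start site, chr19:29945690-29945789, plus strand: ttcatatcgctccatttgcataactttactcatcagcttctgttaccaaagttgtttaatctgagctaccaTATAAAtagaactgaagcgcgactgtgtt
Il33, outer start site, chr19:29925013-29925112, plus strand: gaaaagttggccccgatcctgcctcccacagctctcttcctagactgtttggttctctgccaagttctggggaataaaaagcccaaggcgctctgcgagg
Il18, chr9:50554600-50554699, plus strand: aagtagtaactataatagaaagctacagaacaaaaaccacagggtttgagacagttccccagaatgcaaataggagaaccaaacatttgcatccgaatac
TATAAA began 31 bases before the start site of Il1b, at -31, and at -29 in Tnf and at the inner start site of Il33. Both strands of the whole promoter, from 250 bases before the start site to 50 after it, were searched for these 6 letters alone. In that larger window the outer Il33 promoter had a match at -203, Il18 had a match on the other strand only, at -175, and the promoters of the 5 receptors had none. Over all 32851 promoters, 13.6% held the motif on either strand, and 1.99% held it on the strand of the gene between -40 and -20, a window chosen after the matches had been seen. A match of these letters describes the sequence only, and the FPKM are per gene and do not separate the 2 start sites of Il33.

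Il1b and Tnf, the classical early cytokines of inflammation, were at or near 0 in every library. The cortex was taken days after the operation, and no earlier time was measured. Il1b (ENSMUSG00000027398, GRCm38 chromosome 2, 129364570 to 129371139) was listed at 0 in all CON libraries and in PND replicates 2 and 3, and at 0.0961 FPKM in PND replicate 1, worth an estimated 1.62 fragments. Tnf (ENSMUSG00000024401, chromosome 17, 35199381 to 35202007) showed the same pattern, with 0.0742 FPKM or an estimated 1.08 fragments in PND replicate 1 and 0 elsewhere. PND replicate 1 therefore held every fragment of both genes. That library also had the most haemoglobin mRNA, 2.76 FPKM against 0 to 0.191 FPKM in the others, and listed the neutrophil gene S100a8 at 0.230 FPKM, an estimated 1.41 fragments, against 0 in the others; the part of blood cells in the 2 values was not tested. A count of 3 fragments, the limit that a count of 0 allows, corresponds to 0.168 to 0.218 FPKM for Il1b and to 0.195 to 0.254 FPKM for Tnf in the 6 libraries. A listed 0 is thus compatible with any level below these values, and the traces in PND replicate 1 are below them too. Neither gene reached the mean of 0.1 FPKM required for the test, and no fold change is given.

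Il18 was the most abundant of the 10 genes, and Il33 was the one whose level differed most between mice. Il18 (ENSMUSG00000039217, chromosome 9, 50554827 to 50581840), whose product matures through caspase-1, had 24.2, 19.0 and 21.9 FPKM in PND replicates 1 to 3 and 29.7, 22.3 and 23.0 FPKM in CON replicates 1 to 3. The groups overlapped, since PND replicate 1 lay above CON replicates 2 and 3. The means were 21.7 ± 2.64 FPKM in PND against 25.0 ± 4.09 FPKM in CON (SD, n = 3), a log2 fold change of -0.20 (95% confidence interval -0.56 to 0.16, limma adjusted p = 0.9999). That interval lies within a 2-fold change in both directions. Fold changes here and below are PND minus CON on the log2(FPKM + 0.1) scale.

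Il33 (ENSMUSG00000024810, chromosome 19, 29925114 to 29960718) encodes the nuclear alarmin IL-33, which injured cells release. Its levels were 6.82, 2.67 and 2.82 FPKM in PND replicates 1 to 3 and 12.3, 2.80 and 10.7 FPKM in CON replicates 1 to 3. CON replicates 1 and 3 were higher than every PND library, whereas CON replicate 2 was as low as PND replicates 2 and 3, so that the groups overlapped. The means were 4.10 ± 2.35 FPKM in PND against 8.58 ± 5.07 FPKM in CON (SD, n = 3). The log2 fold change was -0.93 (SE 0.60, 95% confidence interval -2.33 to 0.47, limma adjusted p = 0.9999), which did not pass the test. The spread of Il33 within groups, a pooled SD of 0.97 on the log2 scale, lay at the 97.8th percentile of the 12387 genes with at least 1 FPKM, where the median was 0.245. The libraries held an estimated 60.8 to 265 Il33 fragments each.

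One library decided the call for Il33. Without CON replicate 2 the log2 fold change was -1.59 (SE 0.40) and passed the cut-off of the study explained below, with a limma adjusted p of 0.831, and without any other library it lay between -1.36 and -0.55 and did not. CON replicate 2 was the library with the highest level of GC-rich genes, and the GC content of Il33 was 42.5%. After a correction for GC content the log2 fold change was -0.90 (SE 0.56), still short of the cut-off.

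**Figure D1:**
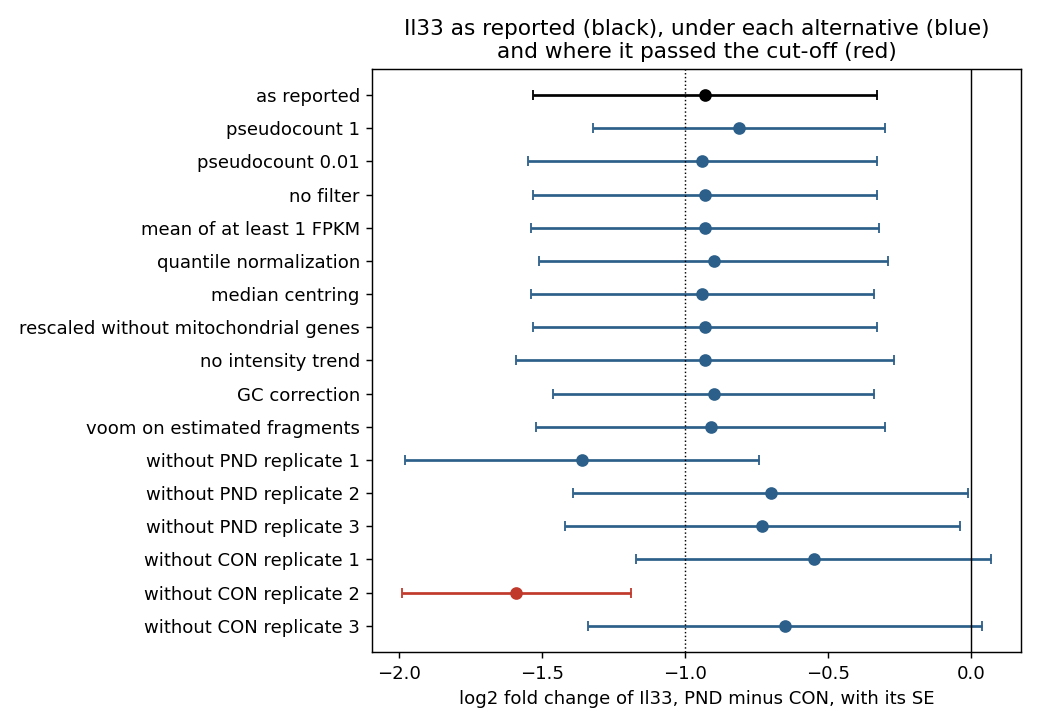
Log2 fold change of Il33, PND minus CON, on the horizontal axis, with its SE as a bar, for the reported test (black) and for each alternative on its own row, fits with the replicate number as a block left out. Every estimate is below 0, and the row without CON replicate 2 (red, -1.59) is the only one past the dotted line at -1 with a p below 0.05.

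Il34 (ENSMUSG00000031750, chromosome 8, 110741829 to 110805924), the neuronal ligand of the microglial receptor CSF1R, had the same mean level in both groups. It measured 1.92, 2.08 and 2.52 FPKM in PND, and 1.73, 2.87 and 1.89 FPKM in CON, and the highest and the lowest value both came from CON. The means were 2.18 ± 0.309 FPKM and 2.16 ± 0.616 FPKM (SD, n = 3), with a log2 fold change of 0.03 (95% confidence interval -0.54 to 0.60, limma adjusted p = 0.9999). It was the GC-richest of the 10 genes (57.0%), and after the GC correction the log2 fold change was -0.05. With a GC content of 55.9%, Tnfrsf1a came next, and both genes were lowest in CON replicate 1, in which GC-rich genes were low in general. The GC-corrected log2 fold change of Tnfrsf1a was 0.32, from 0.39 without the correction.

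**Figure D2:**
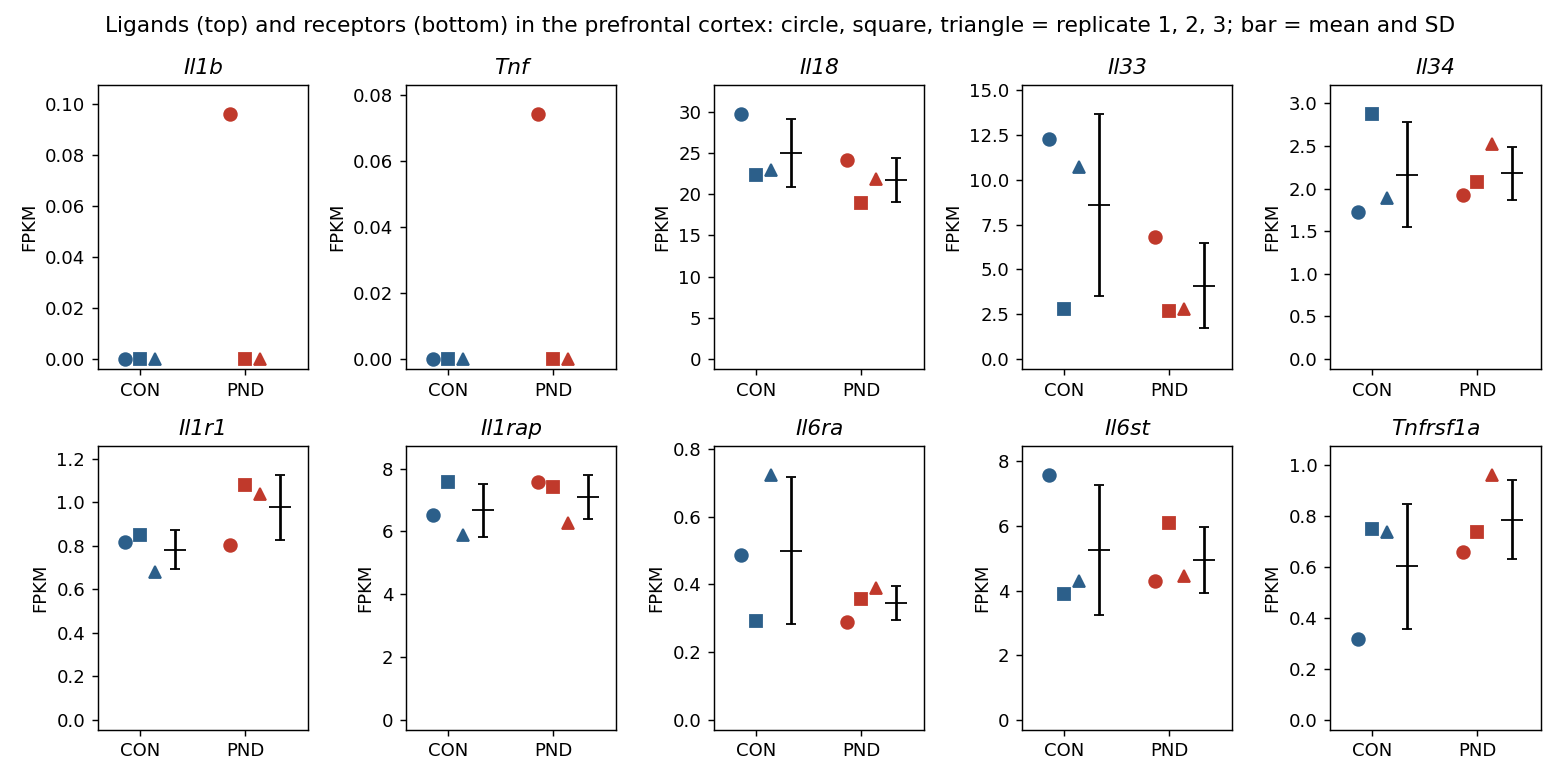
FPKM of the 5 ligand genes (top row) and the 5 receptor genes (bottom row) in the 3 CON and the 3 PND libraries, each panel with its own linear axis from 0, where circle, square and triangle stand for replicates 1, 2 and 3 and the bar beside them for the mean and SD. The points of the 2 groups overlap in every panel, Il1b and Tnf are above 0 in PND replicate 1 only, and the CON values of Il33 split into 2.80 FPKM and 10.7 to 12.3 FPKM.

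Both subunits of the IL-1 receptor were present. Il1r1 (ENSMUSG00000026072, chromosome 1, 40225080 to 40317257) encodes the chain that binds IL-1β and is found in brain mainly on endothelial cells and some neurons. It had 0.806, 1.08 and 1.04 FPKM in PND, and 0.816, 0.850 and 0.680 FPKM in CON. PND replicates 2 and 3 lay above all CON libraries and PND replicate 1 did not, and the log2 fold change was 0.28 (95% confidence interval -0.30 to 0.87, limma adjusted p = 0.9999). The endothelial marker sum was also higher in PND, as given above, but its highest value was in PND replicate 1, where Il1r1 was lowest within its group; the part of endothelial RNA in the Il1r1 values was not tested. In bulk tissue, more cells of a type and more RNA per cell cannot be told apart.

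Il1rap (ENSMUSG00000022514, chromosome 16, 26581704 to 26730117) encodes the accessory chain that IL-1β, IL-33 and IL-36 receptors share, and brain also makes a form of it of its own. It was more abundant than the binding chain, with 7.57, 7.42 and 6.28 FPKM in PND, and 6.53, 7.58 and 5.90 FPKM in CON. The log2 fold change was 0.09 (95% confidence interval -0.27 to 0.45, limma adjusted p = 0.9999), an interval within 2-fold in both directions. The ratio of Il1rap to Il1r1 FPKM was between 6.02 and 9.39 in the 6 libraries and overlapped between the groups. The exons of Il1rap share 552 bases with the gene Gm20319 on the other strand, and whether the counting used strand was not given in the sources used here.

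The receptor for IL-6 showed a similar imbalance between a scarce binding chain and an abundant shared one. Il6ra (ENSMUSG00000027947, chromosome 3, 89864059 to 89913196), the binding chain, had 0.289, 0.358 and 0.389 FPKM in PND, and 0.487, 0.291 and 0.723 FPKM in CON, with a log2 fold change of -0.37 (95% confidence interval -1.24 to 0.49, limma adjusted p = 0.9999). CON replicates 1 and 3 were higher than all PND libraries, and CON replicate 2 lay among the PND values. The log2 fold change was -0.65 without CON replicate 2 and -0.11 without CON replicate 3. Its libraries held an estimated 20.5 to 45.1 fragments each, and 242 exonic bases overlap Gm42809 on the other strand.

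Il6st (ENSMUSG00000021756, chromosome 13, 112464070 to 112510086) encodes gp130, the signalling chain of the receptors for IL-6, LIF, CNTF and oncostatin M. It had 4.29, 6.11 and 4.44 FPKM in PND, and 7.58, 3.89 and 4.30 FPKM in CON, so that CON replicate 1 was the highest library and CON replicate 2 the lowest. The log2 fold change was -0.04 (95% confidence interval -0.69 to 0.61, limma adjusted p = 0.9999). The ratio of Il6st to Il6ra FPKM ranged from 5.95 to 17.1, and the groups overlapped.

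Tnfrsf1a (ENSMUSG00000030341, chromosome 6, 125349362 to 125362484) encodes TNFR1, the death-domain receptor of TNF. Its levels were 0.661, 0.739 and 0.962 FPKM in PND, and 0.319, 0.750 and 0.739 FPKM in CON. Only CON replicate 1 stood below the others, with an estimated 6.18 fragments, and the log2 fold change of 0.39 (95% confidence interval -0.46 to 1.24, limma adjusted p = 0.9999) fell to 0.06 without it.

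Across the genes, 8 of the 10 reached the test, 4 with a higher and 4 with a lower estimate in PND, and their median log2 fold change was 0.00 against 0.01 over all genes tested. The cut-off of the study, an absolute log2 fold change above 1 with an unadjusted p below 0.05, was passed by 0 of the 8, against 241 of 18185 genes (1.33%), namely 153 higher in PND (0.841%) and 88 lower (0.484%). The balance turned to 107 higher and 128 lower without PND replicate 3. An unadjusted limma p below 0.05 was given to 0 of the 8, against 569 genes (3.13%), and an adjusted p below 0.05 to 0 of the 8, against 2 genes (0.011%). Groups that did not overlap were found in 0 of the 8, against 1393 genes (7.66%). At background rates of this size, a count of 0 among 8 genes is close to the background and does not set these genes apart. The width of the intervals limits each gene: those of Il18, Il34, Il1r1, Il1rap and Il6st exclude a 2-fold change, and those of Il33, Il6ra and Tnfrsf1a do not.

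**Figure D3:**
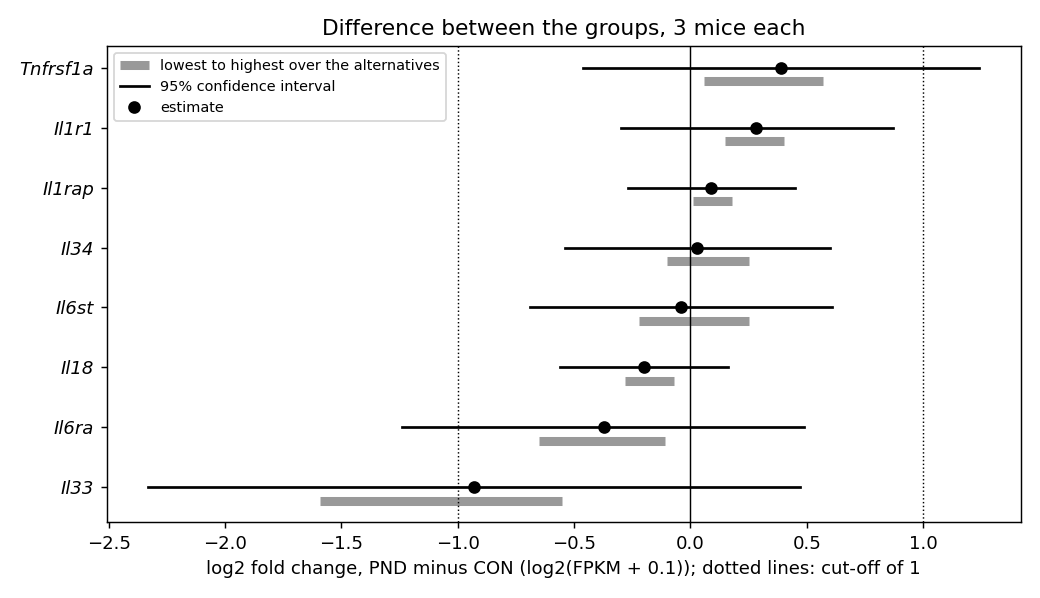
Log2 fold change, PND minus CON, of the 8 genes tested on the horizontal axis, with the limma estimate as a point, its 95% confidence interval as a thin line and the lowest to highest estimate over the alternatives as a grey bar. Every confidence interval crosses 0, and the grey bar of Il33, from -1.59 to -0.55, is the only one that reaches past the dotted lines at an absolute value of 1.

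Compared by FPKM, which is a level per exon length, the order over the 6 libraries was Il18 (mean 23.4), Il1rap (6.88), Il33 (6.34), Il6st (5.10), Il34 (2.17), Il1r1 (0.879), Tnfrsf1a (0.695), Il6ra (0.423), Il1b (0.0160) and Tnf (0.0124). Il18 exceeded Il1rap in 6 of 6 libraries, Il6st exceeded Il34 in 6 of 6, and Il34 exceeded Il1r1 in 6 of 6. Il1rap exceeded Il33 in 4 libraries and Il33 exceeded Il6st in 3, so that these neighbours did not differ beyond their spread. Il1r1 was above Tnfrsf1a, and Tnfrsf1a above Il6ra, in 5 of 6 libraries each. The receptor chains shared by several cytokines, Il1rap and Il6st, thus stood above the ligand-binding chains of the same receptors in all 6 libraries.

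The partners of the 10 genes were covered by lists of 147 genes, of which 124 were in the files and 97 were tested. Of these, 2 were higher (Fas and Lcn2) and 1 was lower (Cntf) in PND by the cut-off, or 3.09%, beside 1.33% of all genes, and 0 had an adjusted p below 0.05 in limma, against 4 with an unadjusted p below 0.05. Lcn2 and Cntf reached the mean of 0.1 FPKM through the group with the higher values alone, so that the 2 shares cannot be read against each other. Groups did not overlap for 12 of the 97, or 12.4%, against 7.66% of all genes. Lcn2 is among the 12, so that these shares cannot be read against each other either. The median log2 fold change of the 97 was 0.02. The lists had been put together with earlier results of these data known.

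**Figure D4:**
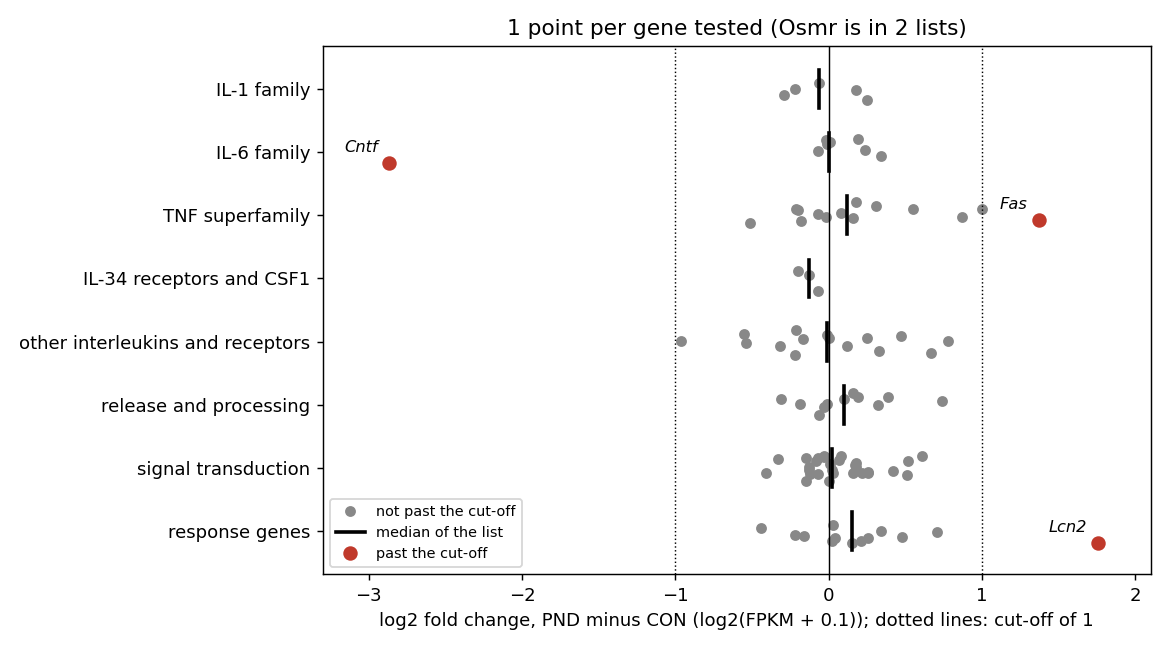
Log2 fold change, PND minus CON, of the 97 tested partner genes, 1 point per gene in the row of its list (Osmr is in 2 lists), with the median of each list as a black bar. The medians lie between -0.13 and 0.15, and Fas, Lcn2 and Cntf (red) are the genes past the cut-off.

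In the IL-1 family, 10 of 16 listed genes were in the files, 5 were tested and 0 passed the cut-off. Il18bp, the decoy that neutralises IL-18, measured 3.98 ± 0.633 FPKM on average in PND against 3.50 ± 0.558 FPKM in CON (SD, n = 3), a log2 fold change of 0.18 (limma adjusted p = 0.9999). The ratio of Il18 to Il18bp FPKM was 5.56, 5.83 and 5.06 in PND and 10.4, 5.93 and 5.93 in CON. These ratios did not overlap between the groups, but the highest PND ratio was close to 2 of the CON ratios, and the ratio was formed after the values had been seen and was not tested. Il1rapl2, a synaptic relative of Il1rap, lay between 2.24 and 2.73 FPKM in PND and between 2.75 and 3.10 FPKM in CON, with a log2 fold change of -0.22 (95% confidence interval -0.62 to 0.18) that did not pass the test. Some receptors of the ligands were barely detected: Il1rl1, the IL-33 receptor, lay between 0.0102 and 0.0385 FPKM with at most 2.49 estimated fragments in a library, and Il18rap, a subunit of the IL-18 receptor, was listed at 0.102 FPKM in PND replicate 2 and at 0 elsewhere. Both were chosen after their values were seen, and Il18r1, of the same list, was not matched to any gene in the files.

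In the IL-6 family, 13 of 15 listed genes were in the files, 8 were tested and 1 passed the cut-off. That gene was Cntf (ENSMUSG00000079415, chromosome 19, 12763660 to 12765632), ciliary neurotrophic factor, which astrocytes make and which signals through gp130. It was listed at 0 in all PND libraries and in CON replicate 2, at 4.35 FPKM in CON replicate 1 and at 0.777 FPKM in CON replicate 3. Its mean reached 0.1 FPKM through these 2 CON libraries alone. The groups overlapped at 0, and the call (log2 fold change -2.87, SE 1.22, 95% confidence interval -5.73 to -0.01, limma adjusted p = 0.9999) was lost without CON replicate 1 (-1.57, SE 0.94), without CON replicate 3 (-2.74, SE 1.49) and without any 1 of the PND libraries. In all it was lost in 10 of 18 alternatives, among them both other pseudocounts (-1.08 and -5.02). Against a floor of 3 fragments in each PND library, the mean was at least 5.3-fold lower in PND, a bound that falls to 1.2-fold without CON replicate 1, and the fitted value depends on the added 0.1 FPKM. Cntf shares 847 of its 1073 exonic bases with Zfp91 on the same strand, so that fragments from this stretch could have been given to either gene.

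Il6 itself was between 0 and 0.0601 FPKM, with at most 1.19 estimated fragments in a library, which is under the limit that a count of 0 allows. Osmr, which pairs with gp130 in the oncostatin M receptor, was 1.10, 1.25 and 1.15 FPKM in PND, and 0.930, 0.872 and 0.901 FPKM in CON. The groups did not overlap, but the difference was small, at a log2 fold change of 0.34 (95% confidence interval -0.16 to 0.85, limma adjusted p = 0.9999). Lifr, which pairs with gp130 in the LIF receptor, had a log2 fold change of -0.07 (SE 0.12).

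In the TNF superfamily, 16 of 19 listed genes were in the files, 14 were tested and 1 passed the cut-off. Fas (ENSMUSG00000024778, chromosome 19, 34290666 to 34327772), the death receptor that binds Fas ligand, had 1.44, 2.18 and 1.89 FPKM in PND, and 1.19, 0.545 and 0.386 FPKM in CON. Each PND library was above each CON library, with CON replicate 1 closest to the PND values. The log2 fold change was 1.37 (SE 0.39, 95% confidence interval 0.46 to 2.29), and the limma adjusted p over all genes was 0.9999. The estimate lay between 1.07 and 1.77 when any single library was left out, with an unadjusted p below 0.05 each time, and it rested on an estimated 98.4 fragments in PND and 33.2 in CON. With a pseudocount of 1 FPKM the estimate was 0.75 and the call was lost, the only loss in 19 alternatives. Tnfrsf1b, the other TNF receptor, was chosen after its values were seen, and had 0.433, 0.355 and 0.381 FPKM in PND, and 0.204, 0.345 and 0.355 FPKM in CON, with a log2 fold change of 0.31 (SE 0.33). Tnfrsf11b, the soluble decoy osteoprotegerin, had a log2 fold change of -0.21 (SE 0.31), which turned to 0.11 without PND replicate 2.

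Of the 4 genes around IL-34, 3 were tested and 0 passed the cut-off. Csf1, which encodes the other ligand of CSF1R, had a log2 fold change of -0.20 (SE 0.27), and Ptprz1, a receptor-type phosphatase that also binds IL-34, had -0.07 (SE 0.14). Among 30 other interleukins and interleukin receptors, 22 were in the files, 15 were tested and 0 passed. Il17d, a cytokine of the IL-17 family, had -0.54 (SE 0.39) and Il13ra1, a subunit of the IL-13 receptor, had 0.33 (SE 0.33). The value of Il13ra1 was 0.71 (SE 0.20) without CON replicate 1, with an unadjusted p below 0.05, and 0.13 without CON replicate 2. The gene with the smallest p in this list, Il7r, was noted after its values were seen: it had 0.0705, 0.118 and 0.166 FPKM in PND, and 0.374, 0.383 and 0.217 FPKM in CON, with a log2 fold change of -0.96 (95% confidence interval -1.87 to -0.04, limma adjusted p = 0.9999) that was short of the cut-off.

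The genes that process and release these cytokines were tested in 11 of 13 cases, and 0 passed the cut-off. Aim2, an inflammasome sensor of DNA, had a log2 fold change of -0.31 (SE 0.29), and Adam10, a protease that sheds membrane receptors, had -0.06 (SE 0.11). All 29 listed signal transducers were tested, and 0 passed. Rela, which encodes the p65 subunit of NF-κB, measured 2.64 ± 0.118 FPKM on average in PND against 2.01 ± 0.614 FPKM in CON (SD, n = 3), with a log2 fold change of 0.42 (adjusted p = 0.9999), or 0.65 with an unadjusted p below 0.05 without CON replicate 2. Chuk, which encodes the kinase IKKα, was 7.91 to 8.76 FPKM in PND, and 7.05 to 7.71 FPKM in CON, without overlap, with a log2 fold change of 0.17 (SE 0.12).

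Among 22 genes that respond to these cytokines, 18 were in the files, 13 were tested and 1 passed the cut-off. Lcn2 (ENSMUSG00000026822, chromosome 2, 32384633 to 32388252), lipocalin-2, which reactive astrocytes secrete, was 0.163, 0.286 and 0.285 FPKM in PND, and 0 in all CON libraries. Against a floor of 3 fragments in each CON library this was at least 1.62-fold higher in PND, and the limma adjusted p was 0.9999. The values rested on an estimated 16.7 fragments over the PND libraries together. The gene reached the mean of 0.1 FPKM through its PND values alone, and without PND replicate 2 or 3 it fell below it and could not be tested. With a pseudocount of 1 FPKM the estimate was 0.31 and the call was lost. The astrocyte marker Gfap was also higher in each PND library (22.9, 17.7 and 24.7 FPKM) than in any CON library (13.0, 14.9 and 13.0 FPKM). Aqp4 of the same list was lower in each PND library, 5 of 8 astrocyte markers were higher, and the list sums overlapped between the groups. The part of astrocyte RNA in the Lcn2 values was not tested. The chemokine gene Cxcl1 was below that mean and untested: chosen after its values were seen, it had 0.0754 to 0.0896 FPKM in PND, and 0 in CON, with an estimated 3.98 fragments in all. Of the response genes with at least 1 FPKM, Ptgs2, which encodes cyclooxygenase-2, had a log2 fold change of 0.21 (SE 0.17), and Osmr, described above, is the other with the smallest p. Vcam1, an adhesion molecule of activated endothelium chosen after its values were seen, had -0.22 (SE 0.18).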

How the data were processed

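Ribosomal RNA was removed, libraries were sequenced on an Illumina HiSeq instrument, and reads were filtered with Seqtk and aligned with HISAT2 by the authors. StringTie fragment counts were scaled by TMM and deposited as FPKM, 1 value per gene and sample. The build, annotation and use of strand were not given in the sources used here. The submitters' processing notes name Bowtie 0.12.2, mm8 and mm9, with no role stated.

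Symbols were matched for 20866 of 21006 identifiers. GENCODE M21 on GRCm38 gave coordinates, GC content and exon lengths for 20877 of them, and RefSeq gave promoters. Depth was estimated from the steps of FPKM times exon length: among values worth 0.5 to 20.5 fragments, 41.6% to 44.8% came within 0.05 of a whole fragment, where values without steps would give 10%. Fragment numbers are thus estimates, and floors of 3 fragments cover counting error only.

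The groups were tested against each other with limma 3.58.1 (R 4.3.3, lmFit, eBayes with an intensity trend, two-sided) on log2(FPKM + 0.1). The test took in the 18185 genes that averaged 0.1 FPKM or more, without covariates, with Benjamini-Hochberg adjustment over all of them. This scale understates changes of low genes. The fit was also run on simulated fragments at the estimated depths, with the same dispersion for all genes and no GC effect. That run does not measure error rates in these libraries. Groups came from treatment labels and replicate numbers from titles. Partner genes named were those past the cut-off and, in each list, the 2 with the smallest p among those with at least 1 FPKM; any other is said to be chosen after its values were seen. The 10 genes and the lists were chosen with earlier results of these data known. Alternatives changed the pseudocount, filter, scaling, GC correction, trend, test, replicate block or p threshold, or left out 1 library.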

Additional observations from a re-analysis of the deposited data

How the results depend on the processing

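Of the 10 genes, 0 passed the cut-off in every alternative but 1: leaving out single libraries gave 0 to 1, the 1 being Il33 without CON replicate 2. Il33 was lower in PND in all alternatives, at -0.94 to -0.81 on the log2 scale (-1.59 to -0.55 when single libraries were left out). Il34 changed sign with the GC correction (-0.05), and Il34 (-0.10 to 0.25) and Il6st (-0.22 to 0.25) did so when single libraries were left out. The other 5 tested genes kept their direction. Over all genes, 241 passed the cut-off, 25 with a pseudocount of 1, 59 among genes that averaged 1 FPKM or more, 88 with an unadjusted p below 0.01 and 235 to 388 without single libraries, the highest without CON replicate 2. Quantile normalization gave 124 higher and 116 lower in place of 153 and 88, leaving out PND replicate 1 gave 126 and 118, and leaving out PND replicate 3 turned the balance to 107 and 128. Of the partner genes, 3 passed, against 0 with a pseudocount of 1 (Fas 0.75, Lcn2 0.31), 1 among genes that averaged 1 FPKM or more (Fas) and 1 to 5 without single libraries; it was 1 without PND replicate 2 or PND replicate 3 and 5 without CON replicate 2. Without single libraries the direction turned for Tnfrsf11b (0.11), Ptprz1 (0.05), Adam10 (0.02) and Lifr (0.01), among the partner genes named by rule. Both groups carry the replicate numbers 1 to 3, but same-numbered libraries did not deviate together (correlations -0.05, -0.27 and 0.01 across genes), so they were not treated as pairs. With the number as a replicate block, 226 genes, 0 of the 10 genes and 3 partner genes passed, and Il33 (-0.93, or -0.90 with the GC correction added) then had an unadjusted p below 0.05. Depth limits Il1b, Tnf, Il6, Il1rl1 and Il18rap, which had at most 5.43 estimated fragments in a library. Low counts also limit others, such as Lcn2 (at most 7.01 in a library), Cxcl1, Il7r in PND (at most 7.27) and Tnfrsf1a in CON replicate 1 (6.18). The 3 mice per group limit every gene.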
